A study of Mus musculus with 11 samples.

Results

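The promoters examined here are those of the genes for glutamate and GABA receptor subunits, in a read count table of 21881 promoter windows. They were chosen by a rule on gene symbols alone, although earlier results of these data were known when it was set. All windows named Gria, Grik or Grm with a number, Grin1, Grin2, Grin3, or for a GABA-A or GABA-B subunit were taken, and the GABARAP genes were left out. This gave 45 windows, 24 for glutamate receptors and 21 for GABA receptors. All 45 enter the counts, medians and sums below, and none was removed by a filter.

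ST18 belongs to the MYT1 family of zinc finger proteins that bind DNA, and the study used chromatin immunoprecipitation (ChIP) to ask where it sits on the genome. The labels list 2 ST18 ChIP samples and 1 input sample of genomic DNA, all from mouse cells grown in vitro that the labels call TN and brain cell, precipitated through the HA tag. The input sample also carries the HA ChIP label, against its own title, and was taken as input here. How the tagged protein was expressed, and whether the input cells carried it too, is not given in the sources used here. Protocol text on electroporated embryos is attached to these samples as well, in the same words as for the RNA samples. Those are 4 ST18 knockdown and 4 NTC control libraries from sorted cortical cells, and they were not analysed here. Read counts of DNA do not show which genes the cells express, so the cell type could not be checked against markers.

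Glutamate is the main fast excitatory transmitter of the cortex and acts on AMPA, kainate and NMDA channels and on slower metabotropic receptors coupled to G proteins. GABA acts on GABA-A receptors, which are pentameric chloride channels, and on GABA-B receptors coupled to G proteins. In the embryonic cortex GABA depolarises immature cells, since their chloride is high, and subunit composition changes as neurons mature.

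The table has 1 ST18 column and 1 input column, so no value below has a replicate error, and differences have no replicate check. The ST18 column may hold either or both ChIP samples. Summed over all windows there were 438960 ST18 and 160443 input reads, a ratio of 2.74. The 45 receptor windows held 962 ST18 and 356 input reads. A window had a median of 22 ST18 reads (range 7 to 39) and 7 input reads (range 0 to 16), against medians of 20 and 7 over all windows. These receptor promoters were therefore covered about as deeply as promoters in general.

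For each window the ratio of ST18 to input reads was divided by the ratio of all promoters, and the exact (Clopper-Pearson) 95% interval of that fold was taken. A log2 enrichment was also computed on the authors' scale, with a pseudocount of 16 reads, which pulls it towards 0. The 2 measures have different reference points. A log2 of 0 stands for a ratio of 2.47, and a fold of 1 for the 2.74 of all promoters. A window can therefore have a log2 slightly above 0 and a fold below 1. Intervals cover counting error only, because 1 ST18 and 1 input column give no replicate error. Without molecular identifiers a read need not be a separate molecule, so the intervals may be too narrow even for counting error. At these depths they are wide: a 2-fold enrichment lay inside the interval of 29 of the 45 windows, and a fold of 0.5 inside that of 30.

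Upstream sequences of the windows at the ends of both classes are shown first. For each class the highest and the lowest window by log2 enrichment with a RefSeq promoter entry were taken, outside the pairs of overlapping genes described below. Each is the 250 bases before the most upstream start in the RefSeq table of build GRCm38.p6. The count table is on mm9, per the submitters' processing notes, and where its windows lie around the start is not given in the sources used here. Capitals mark AAGTT on either strand (AACTT on the shown strand is the reverse match), the core of the element bound by MYT1-family zinc fingers. Grik2 lies at chr10:49788755-49789004 (minus strand), Grm6 at chr11:50850435-50850684 (plus strand), Gabre at chrX:72274722-72274971 (minus strand) and Gabra3 at chrX:72656920-72657169 (minus strand).
Grik2, highest glutamate window with an entry: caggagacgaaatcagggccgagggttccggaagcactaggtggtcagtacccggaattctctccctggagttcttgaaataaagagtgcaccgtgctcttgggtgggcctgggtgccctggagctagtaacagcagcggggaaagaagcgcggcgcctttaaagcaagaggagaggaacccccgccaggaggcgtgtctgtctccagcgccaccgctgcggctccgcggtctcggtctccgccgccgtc
Grm6, lowest glutamate window: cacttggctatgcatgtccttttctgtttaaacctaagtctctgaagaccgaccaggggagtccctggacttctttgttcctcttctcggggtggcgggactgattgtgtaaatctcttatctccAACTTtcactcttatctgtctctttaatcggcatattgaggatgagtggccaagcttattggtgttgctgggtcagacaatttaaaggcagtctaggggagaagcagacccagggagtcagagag
Gabre, highest GABA window outside the overlapping pairs: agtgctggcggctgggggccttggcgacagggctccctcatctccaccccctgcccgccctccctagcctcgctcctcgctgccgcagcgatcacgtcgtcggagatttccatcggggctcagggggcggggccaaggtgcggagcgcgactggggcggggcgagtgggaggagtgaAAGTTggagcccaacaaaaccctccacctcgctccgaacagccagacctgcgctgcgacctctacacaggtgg
Gabra3, lowest GABA window: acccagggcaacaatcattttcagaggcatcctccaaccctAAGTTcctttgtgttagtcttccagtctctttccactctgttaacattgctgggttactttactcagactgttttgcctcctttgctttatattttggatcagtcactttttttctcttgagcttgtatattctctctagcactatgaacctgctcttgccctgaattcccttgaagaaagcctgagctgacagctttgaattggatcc

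The 4 stretches differ in base composition. The Grik2 stretch is 62.8% G or C with 20 CpG dinucleotides and no AAGTT. The Grm6 stretch is 47.6% G or C with 4 CpG and 1 match. The Gabre stretch is 68.8% G or C with 21 CpG and 1 match, and the Gabra3 stretch 42.4% with 0 CpG and also 1 match. A match thus stood in the shown stretch of the highest GABA gene of these and in that of the lowest gene of both classes. The counted windows are 1000 bp wide and were not themselves searched.

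Over the members, 32 of the 45 genes had a RefSeq promoter entry, with 39 promoters of 300 bases (250 before and 50 after the start). Those without an entry included Grm4, Grm5, Gria1, Gria3, Grik1, Grin2a, Grin2b, Grin3a and Gabrd. AAGTT on either strand was found in 13 of the 39 promoters (33.3%), in 6 of 18 for glutamate and in 7 of 21 for GABA receptors. It was found in 36.3% of the 17949 promoters of genes in the table. Member genes with a match had a median log2 enrichment of 0.08 (11 genes), and those without had 0.07 (21 genes). The corresponding medians over all matched genes were 0.03 and 0.05. Glutamate receptor promoters had a median of 64.2% G or C and 16 CpG, and GABA receptor promoters 54.7% and 9, against 57.3% and 14 over all promoters. Within both classes the spread was wide, from 43.3% to 82.0% and from 38.3% to 80.3% G or C.

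Among the 45 windows 1 reached a log2 enrichment of 0.58, that of Grin3a, or 2.22% of the members, where 1.15% of all windows did. None fell to −0.58, which 0.219% of all windows did. At a lower threshold of 0.4 Grin3a was again the 1 higher window, against 5.88% of all windows, and Gabra3 was the 1 lower window, against 2.35%. The other 43 windows lay between −0.4 and 0.4. The exact interval was above 1 for Grin3a alone, against 2.37% of all windows, and below 1 for Gabra3 alone, against 3.24%. Since 1 of 45 windows is 2.22%, these counts are near the background. An exact binomial test per window, with the ratio of all promoters as the null value, compares the reads of the columns and not conditions. After adjustment over all windows it called 0 of the 45 members, and it called 0.0366% of all windows higher and 0.00914% lower. At an unadjusted exact p under 0.05 it marked 3 members (6.67%), Grin3a, Gabra3 and Gabrr2, where it marked 6.88% of all windows.

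**Figure D1:**
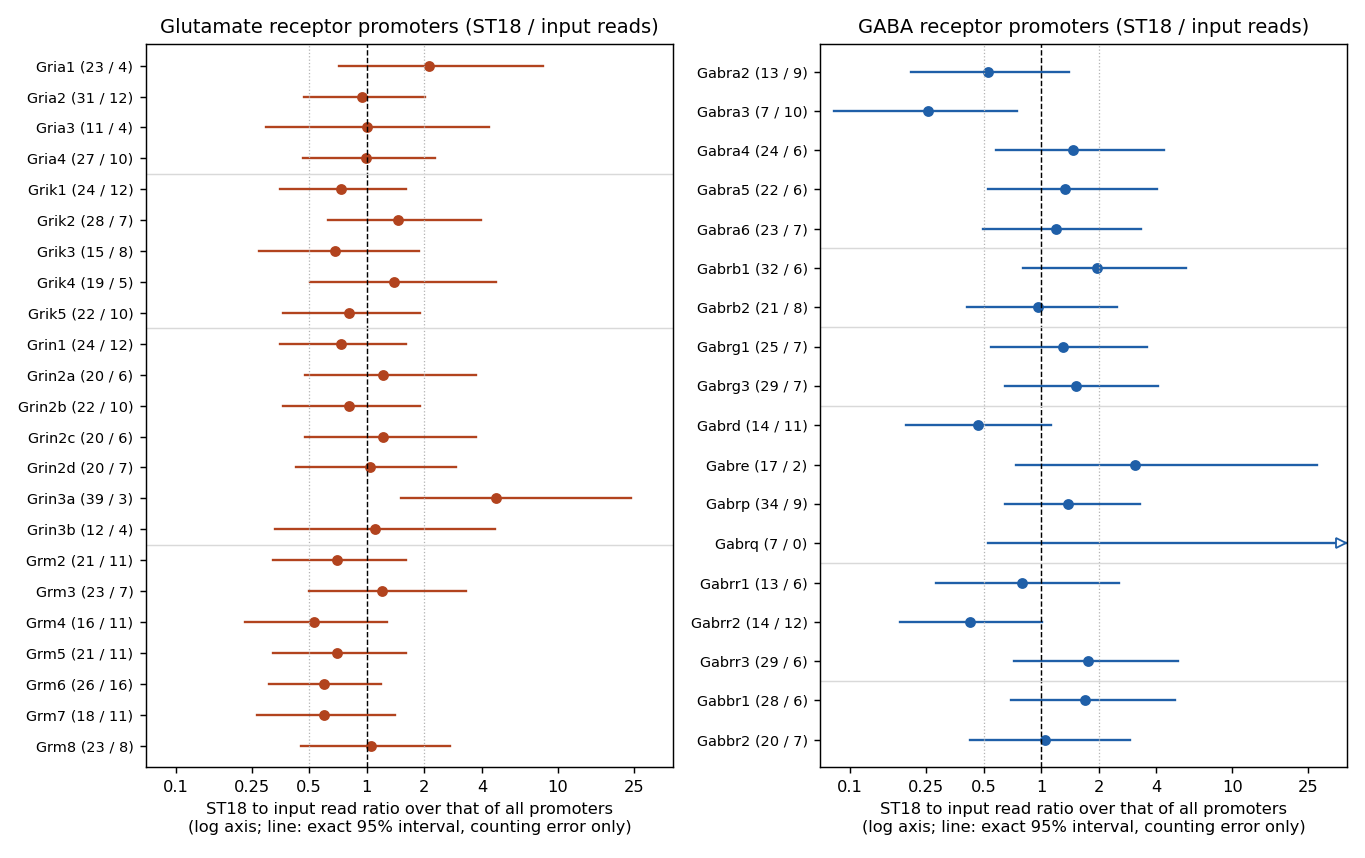
Ratio of ST18 to input reads of each receptor window over the ratio of all promoters (log axis), with the exact 95% interval as a line, glutamate receptors left and GABA receptors right, and both read counts beside each symbol. The plot shows 41 of the 45 windows: the intervals of 39 span 1, that of Grin3a lies above it and that of Gabra3 below it, and the open arrow marks Gabrq, which had no input read.

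The NMDA receptor genes held the highest window of the members. Grin3a encodes a glycine-binding subunit that lowers the calcium permeability of NMDA channels and is prominent in the juvenile brain. With 39 ST18 and 3 input reads its log2 enrichment was 0.74 and its fold 4.75 (1.51 to 24.0). Its window ranked 47th from the top of all 21881, and it had the most ST18 reads of all members and the fewest input reads of the autosomal ones. The exact binomial test did not call it (p adjusted over all windows = 0.351). Its fold rests on 3 input reads, and a minimum of 5 input reads leaves it out. Grin3b, the other gene of this type, held 12 against 4 reads (log2 0.06, fold 1.10, 0.332 to 4.66).

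Grin1 encodes the obligatory subunit of all NMDA receptors and was the lowest of the NMDA windows, with 24 against 12 reads (log2 −0.12, fold 0.731, 0.352 to 1.60). The Grin2 genes encode the glutamate-binding subunits, and their windows lay within a narrow range. Grin2a and Grin2c each held 20 against 6 reads (log2 0.13), Grin2d 20 against 7 (log2 0.07) and Grin2b, the main embryonic Grin2 subunit, 22 against 10 (log2 −0.06). Summed over 7 windows the NMDA genes had a fold of 1.20 over all promoters (0.860 to 1.69). Without Grin3a the sum of the other 6 gave 0.958 (0.675 to 1.38), so the height of this family came from 1 window.

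AMPA receptors carry most fast excitatory transmission. Gria1 held 23 ST18 against 4 input reads, the second-highest glutamate receptor window at a log2 of 0.34 (fold 2.10, 0.718 to 8.36). Gria2, whose edited subunit keeps AMPA channels nearly impermeable to calcium, held 31 against 12 reads at 0.03. Gria4, an early-expressed subunit, held 27 against 10 at 0.05, and the X-linked Gria3 held 11 against 4 at 0.03. The last 3 had folds of 0.944, 0.987 and 1.01, close to all promoters. The 4 windows summed to a fold of 1.12 (0.735 to 1.75).

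Kainate receptor subunits fall into those that form channels alone (Grik1, Grik2, Grik3) and the high-affinity partners (Grik4, Grik5). Grik2 held 28 against 7 reads (log2 0.25, fold 1.46, 0.624 to 3.96), Grik1 24 against 12 (log2 −0.12) and Grik3 15 against 8 (log2 −0.12). Of the partners, Grik4 held 19 against 5 reads (log2 0.17, fold 1.39, 0.502 to 4.76) and Grik5 22 against 10 (log2 −0.06). Windows on both sides of 0 thus occurred in both types, and the 5 windows summed to a fold of 0.940 (0.652 to 1.38).

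The metabotropic receptors were the family with the lowest summed ratio. Their 8 windows together had a fold of 0.731 (0.558 to 0.963), and the median log2 enrichment was −0.14 against 0.04 over all windows. Of the 8, 2 lay above the median of all windows, Grm3 at 0.14 (23 against 7 reads) and Grm8 at 0.08 (23 against 8). The lowest was Grm6, the receptor of retinal ON bipolar cells, with 26 against 16 reads (log2 −0.27, fold 0.594, 0.307 to 1.19). It had the most input reads of all members and more ST18 reads than the median member. Grm4 followed with 16 against 11 (log2 −0.26, fold 0.532, 0.232 to 1.27) and Grm7 with 18 against 11 (log2 −0.21, fold 0.598, 0.268 to 1.40). These 3 belong with Grm8 to group III, most of whose receptors dampen transmitter release from the presynaptic side.

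Grm5, of group I, which couples to phospholipase C, held 21 against 11 reads (log2 −0.14), and Grm2, of group II, held the same. The summed folds were 0.893 for group II (0.506 to 1.64) and 0.660 for group III (0.455 to 0.967). The split by group was not planned. Group III rests on 4 windows with 83 ST18 and 46 input reads, and its sum was not recomputed under other settings. The median metabotropic window held 11 input reads against 7 over all windows, and 21 ST18 reads against 20.

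The metabotropic sum was 0.672-fold that of the 16 ionotropic glutamate receptor windows (exact 95% interval 0.475 to 0.955, counting error only). This contrast was formed after the values were seen, and 10 families were looked at. It became 0.736 (0.518 to 1.05) without Grin3a and 0.702 (0.485 to 1.02) without Grm6. With only windows of at least 5 input reads it became 0.772 (0.538 to 1.11), and each of these intervals includes 1. Leaving out Grin3a or Grm6, each at an end of its family by log2, moves the ratio towards 1 by construction. The input minimum keeps all 8 metabotropic but 12 of the 16 ionotropic windows, and so drops windows with a small denominator. These settings are therefore no independent check of the contrast.

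**Figure D2:**
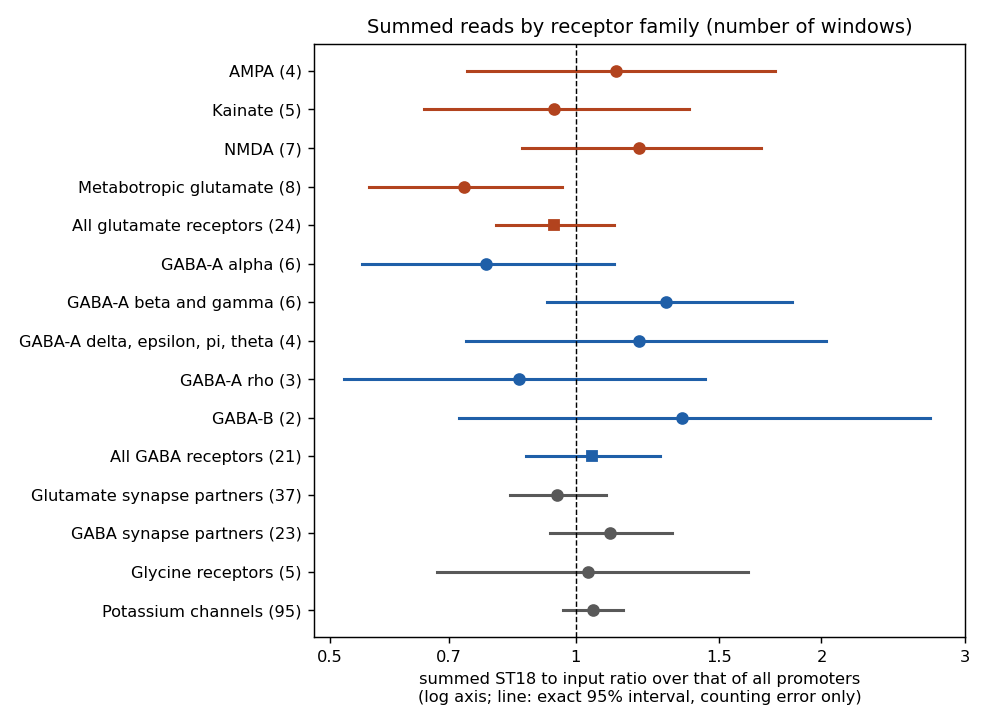
Summed ST18 to input ratio of each receptor family, of both whole classes (squares) and of the comparison lists over the ratio of all promoters (log axis), with the exact 95% interval for counting error as a line and the number of windows in brackets. The metabotropic glutamate receptors, at 0.731, are the 1 family whose interval lies on one side of 1.

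The GABA-A alpha subunits shape the location and drug sensitivity of the receptor. Gabra3, which is expressed early in cortical development, was the lowest member of either class, with 7 ST18 against 10 input reads (log2 −0.46, fold 0.256, 0.0827 to 0.745). It ranked 237th from the bottom of all windows and was not called by the exact binomial test (adjusted p = 0.437). Gabra2, prominent in the embryonic forebrain, held 13 against 9 reads (log2 −0.23, fold 0.528, 0.209 to 1.40).

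Further alpha windows lay above 0. Gabra4, which joins the delta subunit outside synapses, held 24 against 6 reads at a log2 of 0.23, Gabra5, enriched in hippocampus, 22 against 6 at 0.18, and Gabra6, of cerebellar granule cells, 23 against 7 at 0.14. Their folds ran from 1.20 to 1.46, and all 3 intervals included 1. The 6 alpha windows summed to 0.776 (0.547 to 1.11).

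Beta subunits are part of the GABA binding site and of nearly all GABA-A receptors. Gabrb1 was the highest GABA receptor window, with 32 against 6 reads (log2 0.40, fold 1.95, 0.804 to 5.70). Gabrb2 held 21 against 8 (log2 0.03). Among the gamma subunits, which receptors need for clustering at synapses, Gabrg3 held 29 against 7 reads at 0.27 and Gabrg1 25 against 7 at 0.18. The 6 beta and gamma windows together had a fold of 1.29 (0.922 to 1.84).

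The less common subunits covered nearly the whole range. Gabrd, the delta subunit of tonic inhibition, held 14 against 11 reads (log2 −0.32, fold 0.465, 0.196 to 1.13). Gabrp, expressed mostly outside the brain, held 34 against 9 (log2 0.25), the most reads of any GABA receptor window. The X-linked Gabre held 17 against 2 (log2 0.35, fold 3.11, 0.737 to 27.7) and the X-linked Gabrq 7 against 0 (log2 0.24), too few for a fold. The rho subunits, found chiefly in the retina, spread on both sides of 0, with Gabrr3 at 29 against 6 reads (log2 0.34, fold 1.77, 0.721 to 5.20), Gabrr1 at 13 against 6 (log2 −0.05) and Gabrr2 at 14 against 12 (log2 −0.37, fold 0.426, 0.183 to 1.01). The exact binomial test gave Gabrr2 an adjusted p of 0.696.

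Both GABA-B genes encode the partners of an obligatory dimer. Gabbr1 held 28 against 6 reads (log2 0.31, fold 1.71, 0.693 to 5.04) and Gabbr2 20 against 7 (log2 0.07, fold 1.04, 0.424 to 2.92). Both were above the median of all windows, and both intervals included 1.

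**Figure D3:**
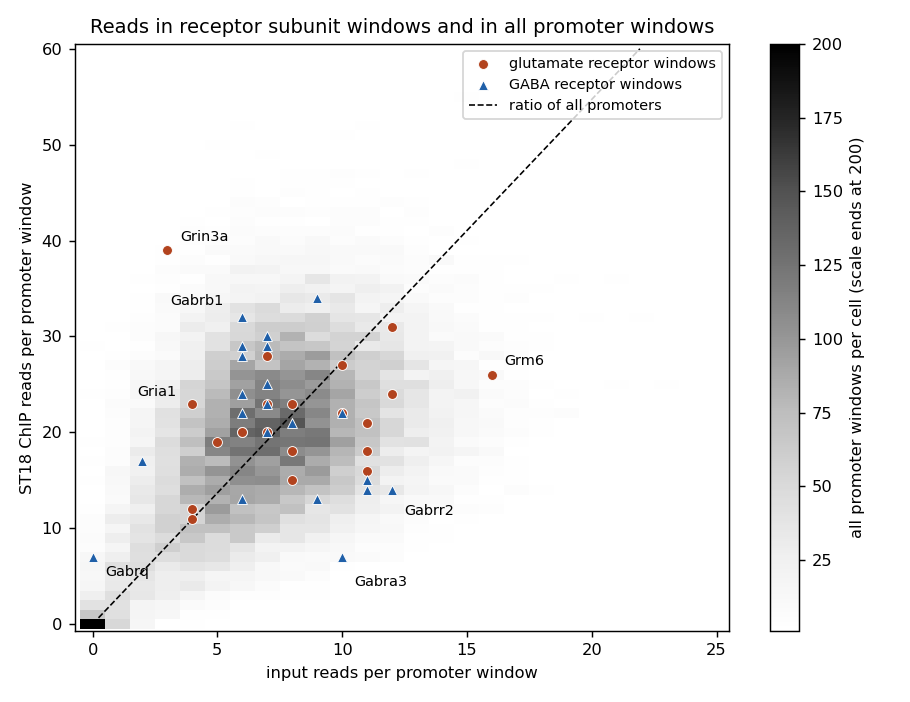
Input reads (x axis) and ST18 ChIP reads (y axis) per promoter window, with all windows as grey cells, glutamate receptors as circles, GABA receptors as triangles and the ratio of all promoters as a dashed line. Grin3a, at 39 against 3 reads, lies far above the line and Gabra3, at 7 against 10, far below it, and windows with equal counts cover each other.

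Most GABA-A genes sit in clusters of neighbours, and 3 of these clusters are given here. The cluster of Gabrg1, Gabra2, Gabra4 and Gabrb1 had 94 ST18 and 28 input reads (fold 1.23, 0.797 to 1.94), with Gabra2 as its 1 low window. The neighbours Gabrr2 and Gabrr1 had 27 and 18 (fold 0.548, 0.291 to 1.06). On the X chromosome Gabre, Gabra3 and Gabrq had 31 and 12 (fold 0.944, 0.471 to 2.02), although Gabra3 and Gabre lay at opposite ends of their class. Every one of these intervals included 1. In the RefSeq annotation 2 pairs of member genes overlap, among them Gabra4 and Gabrb1, so the windows of each pair may share reads and may not be separate observations.

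The 4 X-linked members, Gria3, Gabra3, Gabre and Gabrq, were also shallow, with a median of 16 reads in both columns together (range 7 to 19) against 30 for the 41 autosomal members (range 16 to 43). The same held over the table, with a median of 12 reads in 836 X-linked windows and 28 in 18512 autosomal ones. Their log2 values therefore rest on fewer reads than the others.

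The comparison of excitatory with inhibitory receptors asked whether either class carried more ST18 reads relative to input. The 24 glutamate receptor windows held 523 ST18 and 203 input reads, a fold of 0.942 over all promoters (0.799 to 1.11). The 21 GABA receptor windows held 439 and 153, a fold of 1.05 (0.871 to 1.27). The glutamate ratio was 0.898-fold the GABA ratio (exact 95% interval 0.697 to 1.16), so a difference between the classes was not detectable at this depth. The interval leaves out a glutamate excess above 1.16-fold and a deficit below 0.697-fold, as far as counting error goes. Between the 16 ionotropic glutamate receptor windows and the 19 GABA-A windows the ratio was 1.07 (0.795 to 1.43), which turns the direction.

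By window, the median log2 enrichment was 0.03 for glutamate and 0.18 for GABA receptors, against 0.04 for all windows. Above the median of all windows lay 11 of 24 glutamate windows (45.8%) and 13 of 21 GABA windows (61.9%), where 49.6% of all windows did. The ranges overlapped almost wholly, from −0.27 to 0.74 and from −0.46 to 0.40, and the standard deviations across windows were 0.218 and 0.265 against 0.225 over all windows. The gap of the medians was −0.15 and that of the means −0.043.

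**Figure D4:**
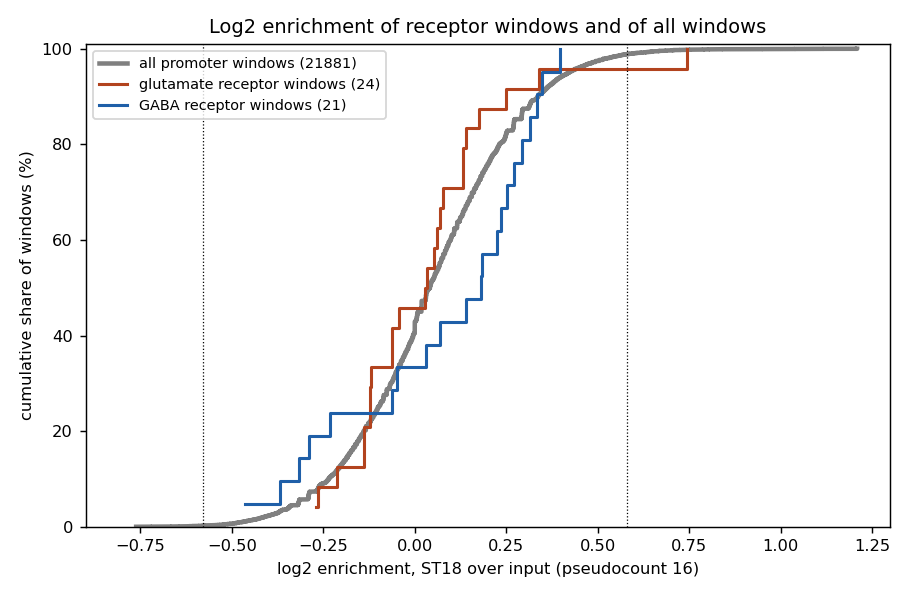
Cumulative share of windows (y axis, percent) by log2 enrichment of ST18 over input (x axis) for all 21881 windows, the 24 glutamate receptor windows and the 21 GABA receptor windows, with dotted lines at −0.58 and 0.58. The GABA curve lies right of the others in the middle, with a median of 0.18 against 0.03 for glutamate receptors. It starts at −0.46, left of the glutamate curve (−0.27) and right of that of all windows (−0.76).

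Other genes of both synapses were taken as lists of transporters, enzymes, anchors and auxiliary subunits. The lists were made with earlier results of these data known. Of 37 glutamate partner windows 2 (5.41%) reached 0.58 and none fell to −0.58, where 1.15% and 0.219% of all windows did. These were Slc1a1, a neuronal glutamate transporter, at 0.61 (32 against 3 reads, fold 3.90, 1.22 to 19.9), and Srr, which makes the NMDA co-agonist D-serine, at 0.60 (39 against 5 reads, fold 2.85, 1.12 to 9.27). The scaffold gene Homer2 followed at 0.42 (30 against 5). The lowest were Slc17a7, a vesicular glutamate transporter, with 8 against 12 reads (log2 −0.54, fold 0.244, 0.0864 to 0.648), and 2 genes for AMPA receptor auxiliary subunits, Cnih3 with 13 against 13 (log2 −0.45) and Cacng3 with 21 against 17 (log2 −0.43). At a threshold of 0.4 the list had 3 higher and 3 lower windows, against 5.88% and 2.35% of all windows. The exact interval lay above 1 for 2 of its windows (5.41%) and below 1 for 4 (10.8%), against 2.37% and 3.24% of all windows. The list had a median of −0.02 and a summed fold of 0.950 (0.830 to 1.09).

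Of 23 GABA partner windows 1 (4.35%) reached 0.58, against 1.15% of all windows. It was that of Aldh5a1, an enzyme of GABA breakdown, at 0.62 (44 against 6 reads, fold 2.68, 1.14 to 7.70). Kctd12, an auxiliary subunit of GABA-B receptors, stood at 0.48 (36 against 6) and Slc32a1, the vesicular GABA transporter, at 0.32 (22 against 4). The lowest was Slc12a5, the chloride exporter of mature neurons, with 16 against 12 reads (log2 −0.32), and, among the next, Nlgn2, an adhesion protein of inhibitory synapses, with 19 against 13 (log2 −0.29). The list had a median of 0.09 and a summed fold of 1.10 (0.929 to 1.31). No partner window passed the exact binomial test after adjustment over all windows. The glutamate partner sum was 0.861-fold the GABA partner sum (0.690 to 1.07), so the interval again included 1.

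Other channel families were set beside the receptors. The 5 glycine receptor windows had a median of 0.02, with Glra3 highest at 0.25 and Glra2 lowest at −0.19, and a summed fold of 1.04 (0.676 to 1.63). The 95 potassium channel windows had a median of 0.12 and a fold of 1.05 (0.966 to 1.14), with 1 window at 0.58 (1.05%), Kcnh5. At a threshold of 0.4, 9 of them were higher (9.47%) and 3 lower, against 5.88% and 2.35% of all windows. Their exact interval lay above 1 for 4 (4.21%) and below 1 for 3 (3.16%), against 2.37% and 3.24% of all windows. The 45 receptor windows together had a median of 0.06 and a fold of 0.988 (0.874 to 1.12). Their interval overlapped those of both families and that of all promoters.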

How the data were processed

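The authors' deposited promoter table gives raw read counts per window of 1000 bp in an ST18 and an Input column, and the authors' log2 enrichment. Per the submitters' processing notes, mm9 was the build, with Bowtie, TopHat2 2.0.8, HTSeq 0.5.4p1, MACS2 2.0.10.20120913 and edgeR as tools, and no role for any of them. Not given in the sources used here are aligner settings, duplicate removal and window placement. The deposited log2 value was recomputed within 1e-06 in all 21881 windows by scaling ST18 counts by 0.406 and adding 16 to both counts, and the recomputed value is printed. The deposited peak list was not used, since no mm9 annotation was at hand.

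Folds, exact 95% intervals, exact two-sided binomial tests (Benjamini-Hochberg adjustment over all windows) and exact conditional intervals of ratios between classes were computed with scipy 1.17.1, pandas 2.3.3 and Python 3.11.15. The intervals of the folds, the binomial tests and the log2 scale were tested on simulated data. The conditional intervals of ratios between classes were not. The limma test held for replicate columns could not be made with 1 ST18 column. Values are given for members past 0.58 on the log2 scale, those whose interval leaves out 1, the 4 highest and 4 lowest per class and the ends of each family, and for the 3 highest and 3 lowest of both partner lists. The single values of 4 members and 1 partner gene are not reported here, although the counts and sums include them. Members and lists were chosen with earlier results of these data known.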

Additional observations from a re-analysis of the deposited data

How the results depend on the processing

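The 1 member at a log2 enrichment of 0.58 became 11 with a pseudocount of 1 (24.1% of all windows). With a pseudocount of 8 it became 2 (6.98%). A minimum of 5 input reads kept 39 members and gave 0, since it leaves Grin3a out, against 0.456% of the 17109 windows kept. The adjusted exact binomial test also gave 0. The 0 members at −0.58 became 6 with a pseudocount of 1 (13.1% of all windows), 1 with a pseudocount of 8 (2.60%), 1 at a threshold of 0.4 (2.35%) and 1 by the exact interval (3.24%). The other 8 settings gave the same counts. The gap of the class medians, −0.15, was −0.39 and −0.23 with pseudocounts of 1 and 8, −0.19 with at least 5 input reads, −0.043 for means, −0.12 for ionotropic glutamate against GABA-A receptors, −0.13 without the deepest window of each class and −0.11 without 1 window of each pair of overlapping member genes. The summed class ratio of 0.898 ran from 0.843 without Grin3a to 1.07 for ionotropic against GABA-A receptors, and its interval included 1 wherever one was computed. The metabotropic to ionotropic ratio of 0.672 became 0.772, 0.736 and 0.702, with intervals that include 1, with at least 5 input reads, without Grin3a and without Grm6, and 0.671 without X-linked windows. The gap between the medians of the partner lists, −0.11, was −0.35 and −0.17 with pseudocounts of 1 and 8. Scaling the columns to their promoter totals lowered the median of all windows by 0.04. A smaller pseudocount widens all log2 values by construction. Scaling to the totals lowers them, since the factor on ST18 counts falls from 0.406 to 0.366. A lower threshold can only add calls, and a minimum of input reads drops windows with a small denominator. Leaving out Grin3a or Grm6 moves the metabotropic ratio towards 1. The cause of the other changes was not tested. The metabotropic contrast itself and the settings that leave out Grin3a, Grm6 or overlapping genes, and all those for the metabotropic ratio and the partner lists, were chosen after seeing the data. No paired analysis was possible because the ST18 column carries no replicate number, and fits without each replicate were not run for the same reason. At this depth counting error alone allows a 2-fold enrichment in 29 of the 45 windows and a fold of 0.5 in 30.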
